A study of Mus musculus with 2 samples.

Results

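The 10 genes described here encode inhibitory receptors and phosphatases of B cells: Ptpn6, Inpp5d, Cd22, Cd72, Siglecg, Fcgr2b, Pirb, Cd5, Lair1 and Ptprc. They were chosen by name for their role in B cell signalling, with no measured value in the rule, out of 22350 protein-coding genes annotated on chromosomes 1 to 19 and X. DNaseI hypersensitive sites (DHS), regions where DNA is open to cutting by DNase I, were counted for each gene over its body and 50 kb on either side, on build mm9. These windows held 123 of the 47474 DHS on the same chromosomes. The DHS came from 1 DNaseI library of splenic B cells from C57/Bl6 mice aged 8 weeks, which were Trp53+/+ and had been mock treated, so that no irradiation was applied. The cells had been enriched on magnetic beads for B220, an isoform of CD45 that is itself the product of Ptprc. The series also holds 1 input library, and neither library has a replicate. All values below are therefore descriptions of a single library, no p-value is given, and the exact binomial 95% intervals cover counting error only.

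B cell receptor signalling is held in check by membrane receptors that carry inhibitory tyrosine motifs in their cytoplasmic tails. When these motifs are phosphorylated, mostly by the kinase Lyn, they recruit the tyrosine phosphatase SHP-1 (from Ptpn6) or the inositol phosphatase SHIP-1 (from Inpp5d), which remove the phosphates that carry the activating signal. CD22, CD72, Siglec-G, PIR-B, CD5 and LAIR-1 are such receptors, and the Fc receptor encoded by Fcgr2b is the best known partner of SHIP-1. CD45 is a receptor phosphatase that acts on the Src family kinases and can both permit and limit signalling.

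The labelled cell type was first compared with marker genes. All 6 B cell marker genes, among them Cd79a, Cd79b, Ms4a1, Pax5 and Cd22, which is also one of the 10 genes, had a promoter DHS, where a promoter reaches from 5 kb before an annotated transcription start site (TSS) to 2 kb past it. Of 7 T cell markers 1 had one, Trac, with a score of 8.58, while Cd3e, Cd3d, Cd3g, Cd4, Cd8a and Cd28 had none. The score is the authors' own value for each DHS, on a scale that is not stated, and had a median of 32.65 over all DHS. Of 8 myeloid markers 4 had a promoter DHS (Itgam 18.16, Emr1 41.05, Cd14 51.05 and Cd68 142.32), of which 1 marker had a DHS over a TSS itself, and 2 of 4 natural killer cell markers had one (Klrb1c 25.96 and Prf1 16.07). Several of the 10 genes are also used by these other cells, and what such cells add to their DHS was not tested.

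Most of these genes had a DHS at their start sites. A promoter DHS was called at 9 of the 10 genes (90%, interval 55.5 to 99.7), Pirb being the exception, against 57.0% of all protein-coding genes, a share that lies just inside the interval. None of the 10 genes had a CpG-rich promoter, defined over the 1000 bp around the gene's 5' end by a GC content from 55% and a CpG ratio (observed over expected) from 0.6 upwards. Their CpG ratios ran from 0.0866 at Pirb to 0.323 at Ptprc. The closer background is therefore the 13739 genes without a CpG-rich promoter, of which 39.2% had a promoter DHS, while genes with a CpG-rich promoter had one in 85.5% of cases. A DHS lay directly over an annotated TSS at 8 of the 10 genes (all but Pirb and Cd5), against 46.6% of protein-coding genes. A distal DHS, one outside the promoter window of every gene, lay within the gene body at 5 of the 10, against 19.9%. The 123 DHS were divided into 21 at a promoter of one of the 10 genes (17.1%), 22 distal DHS in a gene body (17.9%), 39 distal DHS in the flanks (31.7%) and 41 that lay only at promoters of other genes (33.3%). The median window held 14 DHS, against 5 for all protein-coding genes, and the median gene body held 1.161 DHS per 10 kb, against 0.2306.

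**Figure D1:**
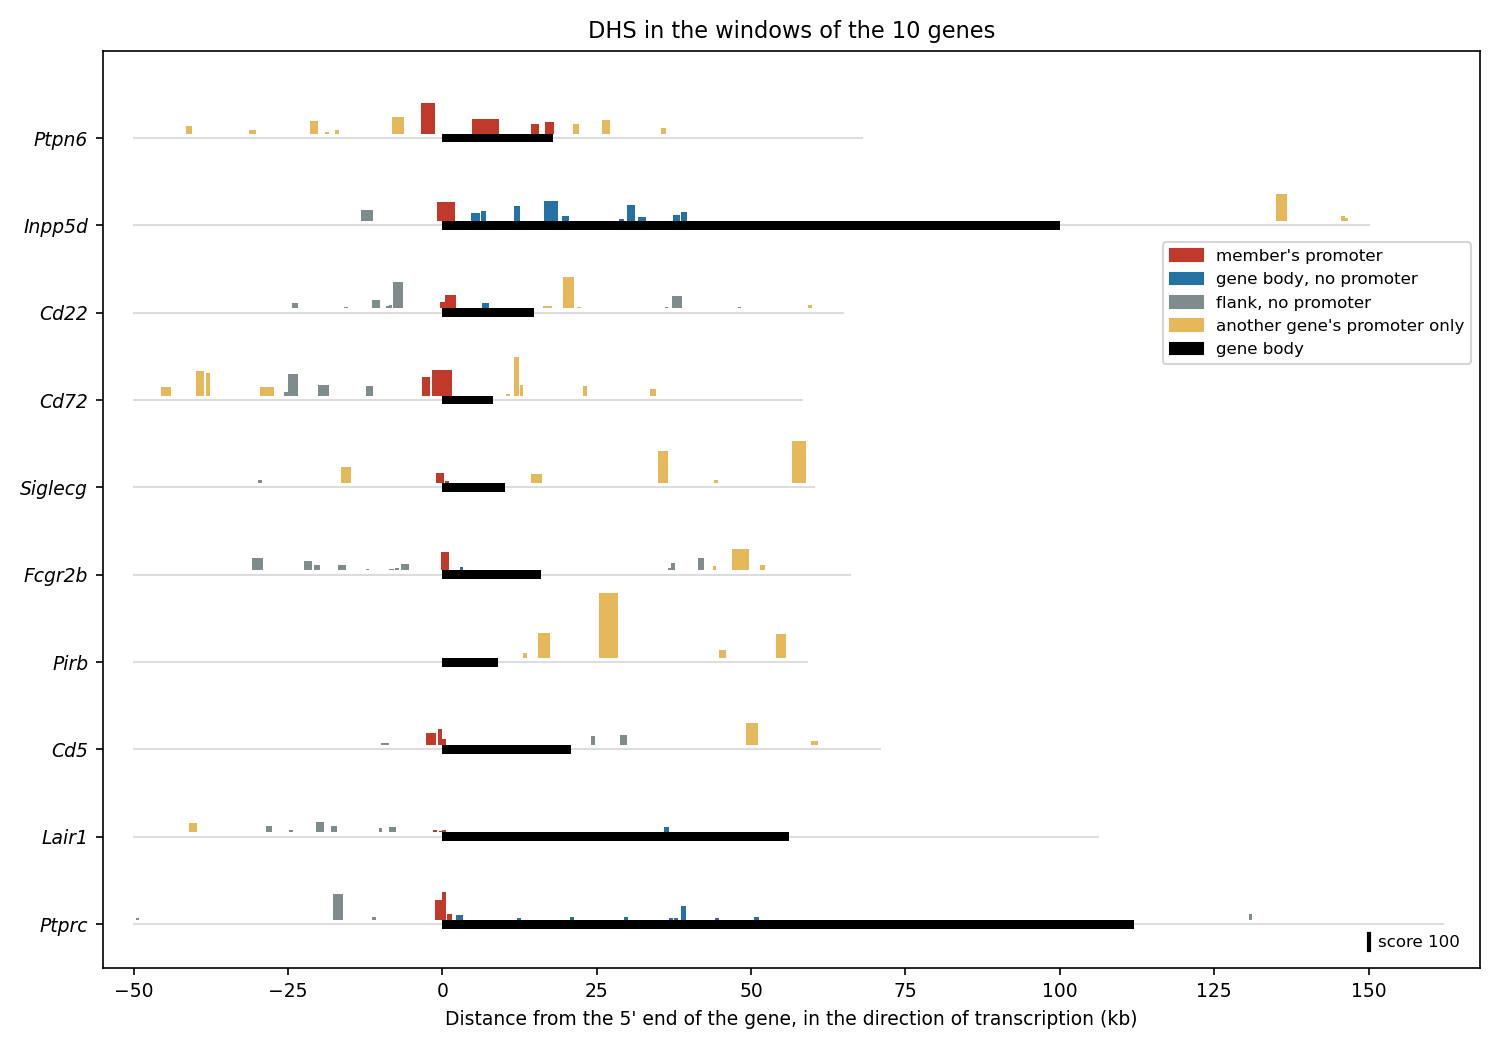
Map of the DHS around each of the 10 genes, with the distance from the gene's 5' end in kb on the horizontal axis and 1 line for each gene. The black bar is the gene body, each coloured block is a DHS with its height in proportion to its score, and blocks narrower than 0.6 kb are drawn at that width. Pirb has no block on or upstream of its body, and the blue blocks of Inpp5d and Ptprc stand before the middle of these genes.

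The genes differed widely in the strength of their promoter DHS. The highest score at each promoter was 186.43 for Ptpn6, 168.39 for Ptprc, 157.86 for Cd72, 116.13 for Inpp5d, 114.45 for Fcgr2b, 97.67 for Cd5, 83.97 for Cd22, 63.74 for Siglecg and 15.72 for Lair1. The value for Ptpn6 is from a DHS over none of its TSSs, which it shares with the promoter of Grcc10, and within 1 kb of a TSS it was 89.25, below those of Ptprc, Cd72, Inpp5d, Fcgr2b and Cd5. Without replicates no error can be set on this order, and close neighbours in it cannot be ranked. The median of 114.5 over these 9 genes was near the median of 101.2 over all genes with a promoter DHS, and Lair1 lay at percentile 3.44 of those genes. Over all 123 DHS the median score was 41.42 and the median width 964 bp, against 32.65 and 760 bp in the whole list. The 61 distal DHS in gene bodies and flanks had a median score of 34.46, against 24.33 for all distal DHS.

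**Figure D2:**
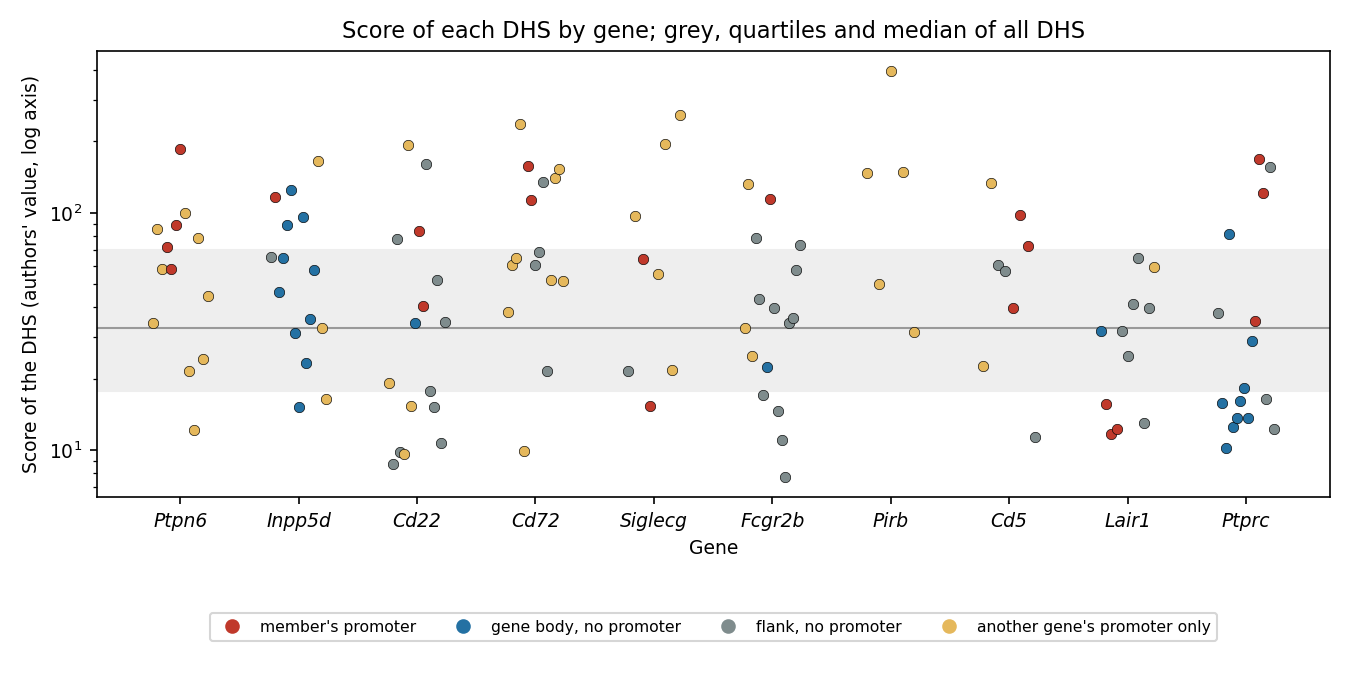
Score of every DHS in the window of each gene, on a log axis, with points coloured by position as the legend gives. The grey band and line are the quartiles and the median of all DHS (17.85, 32.65 and 69.91). The promoter DHS of Lair1 lie below the band and those of Ptpn6 inside or above it, and the highest value is at a promoter of another gene in the Pirb window.

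Sequences from the mm9 assembly are given for the promoters that the results turn on and for 3 distal DHS with high scores. Each runs 5' to 3' in the direction of transcription of its gene, and capitals mark matches to the motif words that are spelled out with the motif results. The promoters are the 200 bases before a TSS: the inner start site of Ptpn6 (chr6:124683173-124683372, minus strand), Cd72 (chr4:43467501-43467700, minus strand), Ptprc (chr1:140071883-140072082, minus strand) and, as the gene with no DHS, Pirb (chr7:3671994-3672193, minus strand).
Ptpn6 inner promoter: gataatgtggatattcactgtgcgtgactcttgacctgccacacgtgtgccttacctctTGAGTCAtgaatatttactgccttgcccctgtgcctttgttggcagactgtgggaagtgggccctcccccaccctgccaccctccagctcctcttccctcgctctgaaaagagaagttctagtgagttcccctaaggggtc
Cd72 promoter: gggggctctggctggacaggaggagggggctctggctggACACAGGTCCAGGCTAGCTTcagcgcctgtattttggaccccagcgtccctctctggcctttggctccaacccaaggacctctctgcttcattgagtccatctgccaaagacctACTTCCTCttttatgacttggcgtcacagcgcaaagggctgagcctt
Ptprc promoter: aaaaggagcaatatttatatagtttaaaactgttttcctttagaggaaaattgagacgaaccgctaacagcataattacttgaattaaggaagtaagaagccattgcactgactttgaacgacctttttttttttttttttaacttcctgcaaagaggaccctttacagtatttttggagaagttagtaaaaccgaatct
Pirb promoter: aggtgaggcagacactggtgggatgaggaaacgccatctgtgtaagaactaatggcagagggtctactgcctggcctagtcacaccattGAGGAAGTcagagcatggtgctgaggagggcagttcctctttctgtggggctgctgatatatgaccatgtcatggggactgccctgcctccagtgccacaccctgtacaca
The whole of the Ptpn6 and Cd72 stretches lay inside a DHS, as did 91 of the 200 bases at Ptprc and 0 at Pirb. Capitals mark an AP-1 word at Ptpn6, a p53 response element followed by a PU.1 word at Cd72, and a PU.1 word at Pirb, while the Ptprc stretch held none of the words and had a GC content of 32%.

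The distal sequences are the central 200 bases of a DHS 7.19 kb upstream of Cd22 (chr7:31672452-31672651, minus strand), 16.9 kb upstream of Ptprc (chr1:140088679-140088878, minus strand) and 17.6 kb inside Inpp5d (chr1:89534384-89534583, plus strand). All distances of DHS are from the gene's 5' end to the centre of the DHS.
Cd22 -7.19 kb: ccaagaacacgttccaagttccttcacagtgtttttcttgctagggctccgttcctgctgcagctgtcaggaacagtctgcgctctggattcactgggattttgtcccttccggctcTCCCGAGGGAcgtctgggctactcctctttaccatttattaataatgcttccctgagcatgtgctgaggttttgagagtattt
Ptprc -16.9 kb: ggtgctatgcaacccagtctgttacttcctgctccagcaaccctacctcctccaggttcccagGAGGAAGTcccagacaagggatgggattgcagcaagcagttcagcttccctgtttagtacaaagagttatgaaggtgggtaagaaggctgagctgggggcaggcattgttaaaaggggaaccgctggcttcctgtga
Inpp5d 17.6 kb: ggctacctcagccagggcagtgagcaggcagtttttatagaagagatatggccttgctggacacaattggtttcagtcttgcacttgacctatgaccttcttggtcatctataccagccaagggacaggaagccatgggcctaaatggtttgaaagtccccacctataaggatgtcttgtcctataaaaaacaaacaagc
Their DHS scored 161.19, 155.75 and 124.79, all at percentile 89.5 of the list or above. Capitals mark an EBF1 word at Cd22, matched on both strands in overlapping positions, and a PU.1 word at Ptprc. The stretch at Inpp5d held none of the words.

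Among the phosphatases, Ptpn6 (chr6:124670725-124688732, minus strand) had the DHS over its start sites inside the gene. The gene is known to use an outer promoter in epithelial cells and an inner one in blood cells. Of its 11 distinct TSSs, the 3 outer ones, within 0.13 kb of the gene's 5' end, were under no DHS. The 4 inner ones, 5.56 to 5.94 kb into the gene, lay under 1 DHS of 4309 bp (chr6:124679553-124683861, score 89.25), the widest of the 123. The DHS nearest to the outer sites was 1176 bp further upstream (score 186.43) and lay at the promoter of the neighbouring gene Grcc10 as well. A pair of further DHS at the 3' end of the gene (58.26 and 72.02) were near the annotated start of the short transcript Ptpn6-009, which the second of them covered, and both also lay at the promoter of Mir200c. Ptpn6 had no distal DHS in its body or flanks, and the other 9 DHS in its window were at promoters of other genes, such as Phb2 and Atn1.

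Inpp5d (chr1:89516887-89617082, plus strand) had a single promoter DHS of 2842 bp (score 116.13), which covered 8 of its 10 distinct TSSs. A further 10 distal DHS followed in its body, the most of the 10 genes, in the first and second introns at 5.36 to 39.1 kb from the 5' end. Their scores were 46.41, 64.34, 89.08, 124.79, 31.22, 15.20, 96.54, 23.20, 35.72 and 57.54 in the direction of transcription. The strongest of them, at 17.6 kb, therefore scored above the promoter itself. No DHS was centred in the remaining 61.1 kb of the gene, which includes the inner TSSs at 55.9 and 89 kb. A DHS also lay 12.2 kb upstream (65.48).

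Ptprc (chr1:139959438-140071882, minus strand) had 3 promoter DHS, with scores of 121.60, 168.39 and 35.19 from upstream to downstream, at a promoter of low GC content (38.8% over 1000 bp). Its 5' end, the start of 4 of 5 transcripts, fell in a gap of 114 bp between the first and second of these, and the second covered the TSS of the remaining transcript. It had 9 distal DHS in its body from 2.76 to 50.8 kb, of which 8 were in the long second intron and 1 in the third. Only the one at 39 kb scored high (81.73), while the others scored 10.17 to 28.82. Exons 4, 5 and 6, which are spliced in to give the B220 form of CD45, lie 52.7, 55.1 and 57.4 kb from the 5' end and are used in 2, 3 and 3 of the 5 annotated transcripts. No DHS was called from exon 4 to the end of the gene, a stretch of 59.7 kb. The strongest distal DHS of the locus was 16.9 kb upstream (155.75).

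Inpp5d and Ptprc shared this layout. Each had 11 DHS in its body, promoter DHS included, a number at percentile 98.6 of protein-coding genes. Both genes are long (100 and 112 kb). Per 10 kb of body they had 1.1 (Inpp5d) and 0.978 (Ptprc) DHS, at percentiles 78.3 and 76.1 of protein-coding genes. In both, all distal body DHS lay before the midpoint of the gene. Among the 602 protein-coding genes of at least 50 kb with at least 5 distal DHS in the body, a median of 50% of such DHS lay before the midpoint, and in 42 genes (6.98%) all of them did. This measure was chosen after the positions had been seen. The count at Ptprc rested on weak DHS. At scores at or above the median of the list it fell from 9 to 1 distal and from 11 to 3 in all, while Inpp5d kept 7 of 10 distal DHS and 8 of 11 in all.

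**Figure D3:**
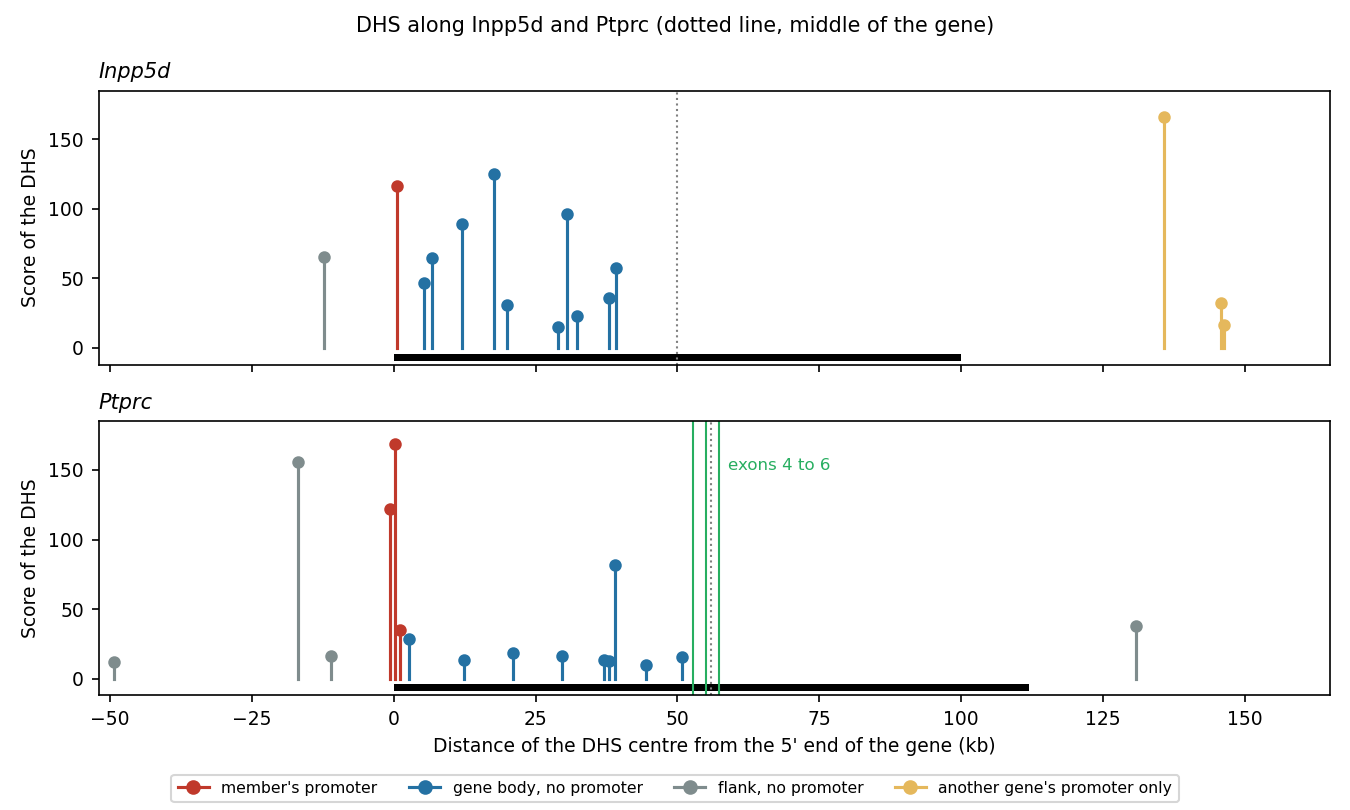
Score of each DHS against its distance from the 5' end, in kb, for Inpp5d (top) and Ptprc (bottom). The black bar is the gene, the dotted line its middle, and the green lines are exons 4 to 6 of Ptprc. In both genes the blue distal DHS of the body end before the dotted line, at 39.1 kb and 50.8 kb.

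Cd22 and Siglecg encode the sialic acid binding receptors of the group. Cd22 (chr7:31650421-31665361, minus strand) had a DHS over each of its TSSs, with a score of 40.68 at the outer and 83.97 at the inner one, 1.31 kb further in. A distal DHS in its body was centred on exon 5 (34.52). Upstream stood a row of 6 distal DHS between 7.19 and 23.9 kb, with scores of 161.19, 17.78, 15.25, 52.12, 10.69 and 34.78 with growing distance. The nearest of them thus scored higher than the promoter. On the downstream side a DHS of 192.29 lay at the promoters of the fatty acid receptor genes Ffar1 and Ffar3, and a distal one scored 77.90. Siglecg (chr7:50663574-50673728, plus strand) had fewer DHS of its own. A promoter DHS of 1370 bp (63.74) covered 4 of its 6 TSSs, and a small one (15.29) followed in exon 3. Of the 31-base words in the larger DHS 30.7% also occur elsewhere in the assembly. There was no distal DHS in the gene body and 1 in the flanks (21.53).

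Cd72 (chr4:43459334-43467500, minus strand), a C-type lectin-like receptor, had a promoter DHS of 3304 bp (157.86) over 7 of its 9 TSSs and another of 113.02 at 2.71 kb upstream. Both were above the upper quartile of the whole list (69.91). The 4 flank DHS were all upstream, at 11.8, 19.2, 24.2 and 25.3 kb, with scores of 60.50, 68.47, 134.66 and 21.51. Beyond them a DHS of 52.11 marked the promoter of Sit1, itself a gene of a signalling inhibitor, and at 12 kb from the 5' end, past the 3' end of Cd72, the Tesk1 promoter scored 236.43.

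Fcgr2b (chr1:172890689-172906678, minus strand), the inhibitory receptor for the Fc part of IgG, had 1 promoter DHS of 114.45 over 2 of its 3 TSSs and a weak one in the first intron (22.36). It had the most flank DHS of the group, 11, with scores from 7.74 to 78.03. Of these, 8 were upstream between 6.05 and 30 kb, and 3 were downstream, on the side of Fcrla (promoter DHS of 132.93), which encodes an Fc receptor-like protein of B cells. Of its relatives, the activating receptor gene Fcgr3 had a promoter DHS of 28.06, and Fcgr4 and Fcgr1 had none. The Fcgr3 promoter is hard to read, since 78.6% of its 31-base words are repeated, against 11.1% at Fcgr2b.

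Cd5 (chr19:10792633-10813464, minus strand), a scavenger receptor-like protein of T cells and of the B-1a subset, had 3 promoter DHS, with scores of 39.71 in the first intron and 97.67 and 72.59 upstream. Its single annotated TSS lay in a gap of 56 bp between the first and second of these, 27 and 30 bp from their edges, so that no DHS covered it. When DHS less than 500 bp apart were joined, it was covered. The same DHS lie at the promoter of A430093F15Rik. The related gene Cd6 next to it on the chromosome scored 26.60. What T cells add to the DHS of Cd5 was not tested.

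Lair1 (chr7:3958675-4014806, minus strand), a receptor for collagens that is also used by T, NK and myeloid cells, had 3 promoter DHS that were all weak, at 15.72, 11.70 and 12.30. The distal DHS in its intron 3 (31.77) scored higher than these, as did 5 of the 6 distal DHS upstream of the gene, which stood between 8.06 and 28 kb and scored 31.80, 24.84, 41.42, 64.31, 13.02 and 39.67. A site open in few of the cells and a site weakly open in all of them cannot be told apart here. Of all 10 genes, Lair1 was the only one that lost its promoter DHS when the list was limited to scores at or above the median, which left 8 of 10 genes with one, against 50.3% of all protein-coding genes.

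Pirb, annotated as Lilrb3 (chr7:3663011-3671993, minus strand), encodes an inhibitory receptor for MHC class I. No DHS was called in its promoter or body, nor in 50 kb of upstream sequence, and none of its 5 TSSs was covered. The 5 DHS in the window were all on the 3' side, the nearest centred 13.4 kb from the gene's 5' end, and all lay at promoters of other genes. These were Rps9 (31.58 and 148.43), Mboat7 and Tsen34 (395.99, at percentile 99.8 of the list), Tmc4 (49.93) and Leng1 with Tmc4 (147.88). Of the 31-base words in the Pirb promoter window 93% occur more than once in the assembly, against 1.74 to 26.8% for the other 9 genes. In its body the share was 43.3%, close to the 43.6% in the body of Lair1. How the authors treated reads that match several places is not stated in the sources used here, and whether the missing DHS at Pirb reflects closed chromatin cannot be told from this list. The same holds for Pira2, an activating relative with no promoter DHS and 95.7% repeated words.

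The 10 genes were then set beside lists of genes that act with or against them. All 16 genes of activating B cell receptor signalling had a promoter DHS (interval 79.4 to 100%), with a median top score of 200.3. The highest were 349.72 at Pik3cd, the catalytic subunit of a phosphoinositide kinase, and 332.33 at the adaptor gene Dapp1. Of the 16, 12 had no CpG-rich promoter, a class in which 39.2% of genes had a promoter DHS. All 16 intracellular negative regulators, such as Csk, Dok3, Cblb and Ptpn22, also had one, with a median of 121.7, and the lowest scores were 52.11 at Sit1 and 52.85 at Ptpn11. Of these, 13 had a CpG-rich promoter, a class in which 85.5% of all genes had a promoter DHS. The median of 114.5 over the 9 inhibitory genes with a promoter DHS was close to that of the intracellular regulators and below that of the activating genes, in a single library with no test of the difference.

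Inhibitory receptors known mainly from T cells, NK cells and myeloid cells had a promoter DHS in 4 of 16 cases (25%, interval 7.27 to 52.4), below the 39.2% of genes without a CpG-rich promoter, which lies within the interval. The 4 were Btla (121.84), which B cells also carry, Clec12a (117.94), Ceacam1 (67.84) and Cd200r1 (31.96). None was called at the other 12, which include the T cell checkpoint receptors Pdcd1, Ctla4, Lag3, Havcr2 and Tigit. Close relatives of the 10 genes had one in 7 of 16 cases (43.8%, interval 19.8 to 70.1). CpG class ran along with this count, since all 6 relatives with a CpG-rich promoter had a DHS there (background 85.5%), against 1 of the other 10 (background 39.2%). Among these, the phosphatases Ptprj (148.37), Ptpre (67.56), Ptpra (67.36), Inppl1 (60.17) and Ptpn11 (52.85) all had one, and all 5 were CpG-rich. The relatives of the receptors had one only at Fcgr3 (28.06), which is also CpG-rich, and Cd6 (26.60), and none at Siglece, Cd33, Siglec1, Mag, Fcgr4, Fcgr1, Cd5l, Pira2 and Lilrb4. Receptor and phosphatase relatives therefore cannot be told apart from the CpG classes here. The lists overlap, since Lilrb4, Cd33, Siglece and Siglec1 stand in both of the last, and Inppl1 and Ptpn11 also among the intracellular regulators.

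**Figure D4:**
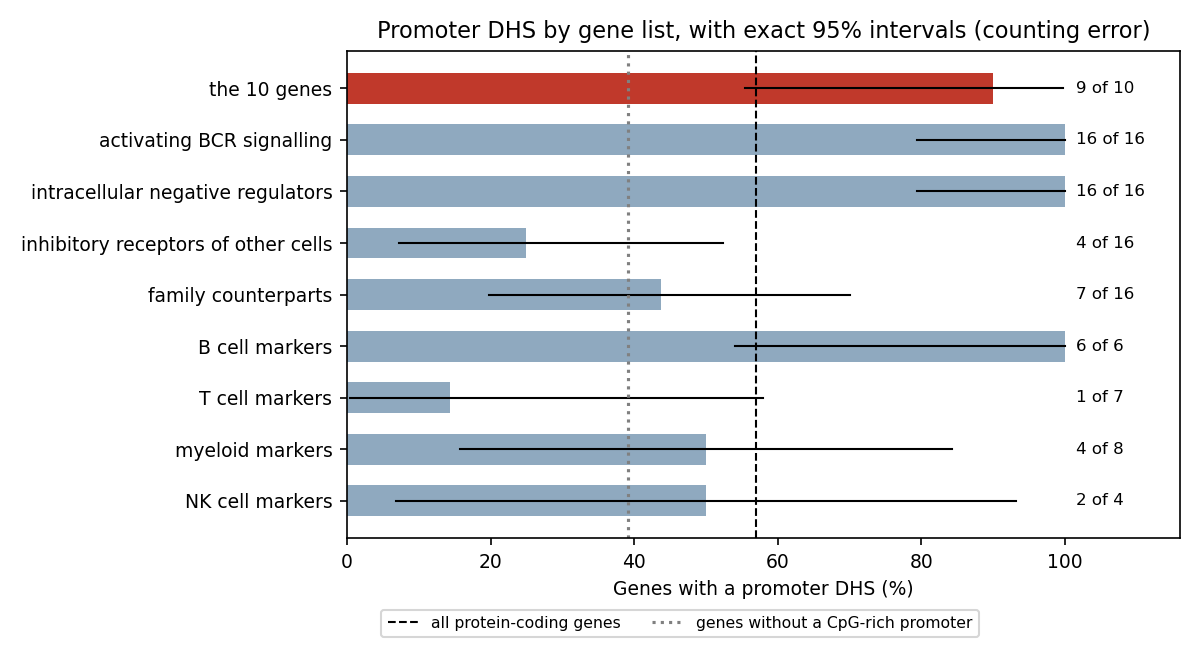
Share of genes with a promoter DHS, in percent, for the 10 genes (red) and for lists of other genes (blue), with the counts at the right. Black lines are exact 95% intervals for counting error, and the vertical lines mark all protein-coding genes (57.0%) and those without a CpG-rich promoter (39.2%). The list of inhibitory receptors of other cells stands at 25% and the 10 genes at 90%.

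Short motif words were counted on both strands in the central 300 bp of each DHS, for the 123 DHS and for the whole list. The PU.1 word GAGGAAGT was in 12 of 123 DHS (9.76%, interval 5.14 to 16.4), against 3.61% of all DHS. Among distal DHS the shares were 13.1% (8 of 61) and 4.22%. Of the 12, Ptprc held 4, at 12.4, 29.7 and 50.8 kb in its body and at 16.9 kb upstream, and Inpp5d held 2 within its second intron. The Ets-IRF composite word GGAANNGAA was in 17.1% (interval 10.9 to 24.9), against 9.32%, and among the 13 distal DHS with it were those of 73.44 and 36.04 upstream of Fcgr2b. The Runx word TGTGGTT was in 11.4% against 6.79%, with an interval (6.36 to 18.4) that takes in the background. PU.1, Ets and composite words share the core GGAA, so their counts are not independent, and DHS of the same gene are not independent of each other.

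The EBF1 word CCCNNGGGA was in 8.13% against 6.62%, including the DHS 7.19 kb upstream of Cd22 and the inner promoter of Cd22. The E2A word CAGGTG was in 26% against 24.1%, the Oct word ATGCAAAT in 1.63% against 1.64%, the Ets word CCGGAAGT in 2.44% against 1.68% and the CTCF word AGGGGGCGC in 0.813% against 1.22%. The AP-1 word TGANTCA was in 4.88% (interval 1.81 to 10.3) against 7.61%, and among distal DHS in 1 of 61 (1.64%) against 9.34%. Over whole peaks in place of the central 300 bp the direction turned, with AP-1 in 26.8% against 21.1% of all DHS. The NF-kappaB word GGANTTTCC was in 0 of 123 (interval 0 to 2.95%), against 1.24%. A p53 response element was a pair of adjacent decamers with at most 2 mismatches, none at the core C or G of a decamer. Such an element was found once, at Cd72, against 0.329% of all DHS. It reaches to 161 bp upstream of the 5' end (chr4:43467642-43467661), overlaps no exon and has 2 mismatches. In the Cd72 promoter above it is the first stretch of capitals. A word match describes letters in the sequence and not the binding of a factor, which was not measured in this library.

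**Figure D5:**
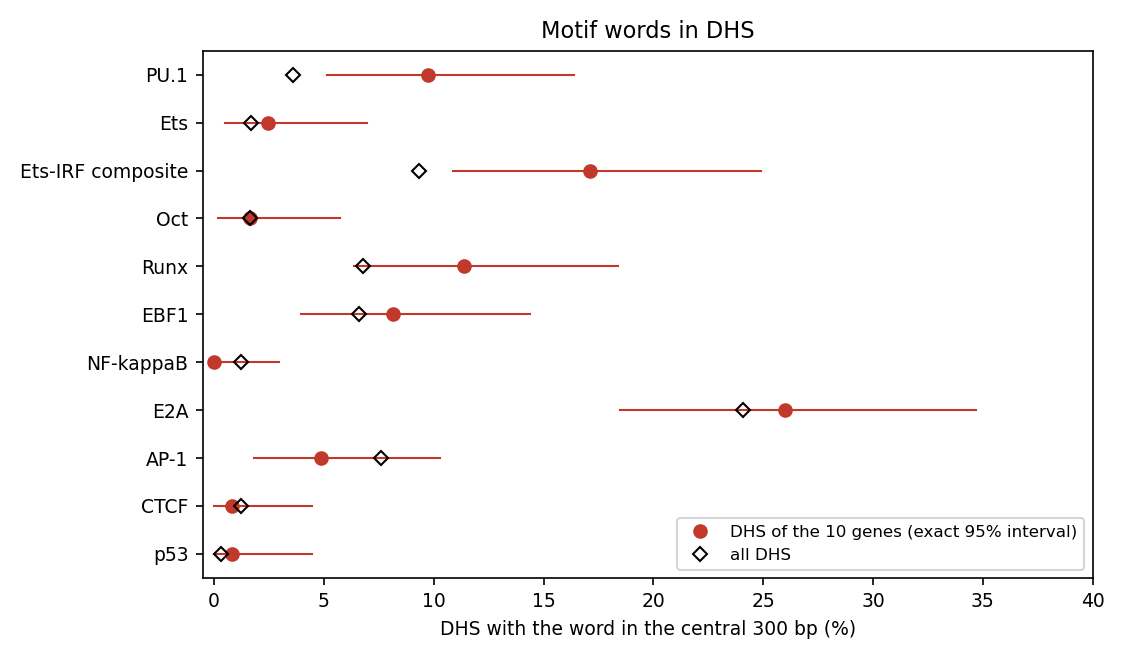
Share of DHS, in percent, with each motif word in the central 300 bp. Red points are the 123 DHS of the 10 genes with exact 95% intervals for counting error, and open diamonds are all 47474 DHS. The diamonds for PU.1 (3.61%) and the Ets-IRF composite (9.32%) lie to the left of the red intervals.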

How the data were processed

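Nuclei of splenic B cells were digested with DNase I, and 1 DNaseI library and 1 input library were sequenced. The submitters' processing notes name BWA 0.6.2, SAMtools and the genome build mm9. The deposited file holds peaks with names of the MACS caller and a score per peak, the authors' own value. Its scale, the settings of the caller, the handling of reads with several matches and the depth are not given in the sources used here for this library. The input library was used only through the authors' peak calls.

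Peaks on chromosomes 1 to 19 and X were placed on GENCODE M1 genes (95414 TSSs) by an overlap of at least 1 bp, with Python 3.11.15, numpy 2.4.6 and scipy 1.17.1. Each DHS was classed, in this order, as at a promoter of the gene, at a promoter of another gene only, in the gene body, or in the flank. Pirb was matched to Lilrb3 through a RefSeq synonym. Motif words and repeated 31-base words were read from the mm9 assembly. The word search was tested on words planted in random sequence, and the overlap of DHS with genes on peaks planted around annotated genes.

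The 10 genes, the lists and the words were chosen with earlier results of these data known. Named are the 10 genes, the nearest genes with a promoter DHS in their windows, and of each list the genes without a promoter DHS where fewer than 6 lacked one, otherwise those with one where fewer than 6 had one, otherwise the 2 highest and 2 lowest by score. Other names and the sequences shown were chosen after values had been seen, and some items that these rules name are not reported here. Alternatives were a threshold at the median score, DHS joined at gaps under 500 bp, a promoter of 1 kb on each side, overlap by the peak centre, TSSs of protein-coding transcripts alone, flanks of 10 kb or none, and whole peaks for words.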

Additional observations from a re-analysis of the deposited data

How the results depend on the processing

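Of 63 alternative values, 52 stayed within 1.5 times the reported count, or for word shares and medians within the 95% interval of the reported value, and 11 moved beyond it. With scores at or above the median, 75 DHS were left in the windows, and 3 genes (Inpp5d, Cd22 and Ptprc) had a distal DHS in the body, against 10.5% of protein-coding genes. The median number of DHS per 10 kb of gene body then fell from 1.161 (95% interval of the median 0.3563 to 1.969) to 0.7119, and over all protein-coding genes from 0.2306 to 0. With flanks of 10 kb the windows held 66 DHS, and the gene bodies alone held 36. Over whole peaks, which hold more sequence, the word shares were 20.3% for PU.1, 37.4% for the Ets-IRF composite, 7.32% for Oct, 30.9% for Runx, 22.8% for EBF1, 56.1% for E2A and 26.8% for AP-1. Over all DHS they were then 8.9, 24.7, 4.7, 18.3, 17.7, 50.6 and 21.1%, so that AP-1 and Oct went from below to above their background. Ets (3.25% against 3.83%) and p53 (0.813% against 1.02%) went from above to below it over whole peaks, as did E2A (20% against 23.8%) and Ets (2.67% against 2.83%) at the median score. The cause was not tested.

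No paired analysis was possible because there was 1 DNaseI and 1 input library, and no result comes from a test. The depth is unknown, so a gene without a DHS is one where none was called, and its chromatin may still be open. Scores have no replicate error, and each list of genes holds at most 16, so that shares of genes have wide intervals.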

Other observations

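Start sites in narrow gaps were seen at 3 of the 10 genes. The 5' end of Cd5, Lair1 and Ptprc lay between a pair of neighbouring DHS that were 56, 112 and 114 bp apart. Counting gaps of up to 200 bp, this held for 537 of 22350 protein-coding genes (2.4%), or 4.21% of those with a promoter DHS. Joining DHS less than 500 bp apart closed all 3 gaps and put a DHS over the 5' end of Cd5, Lair1 and Ptprc. These are peak boundaries of 1 caller in 1 library, and what sets them was not tested.

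Distal DHS in the flanks were mostly upstream. Of the 39 around the 10 genes, 30 lay on the upstream side (76.9%), against 48.1% of the 36226 placements of flank DHS around all protein-coding genes, where a DHS counts once for each gene window it falls in. At Cd72 and Lair1 all of them, 4 and 6, were upstream, at Fcgr2b 8 of 11 and at Cd22 6 of 9, whereas at Cd5 it was 1 of 3. The space left by neighbouring genes differs between the sides and its part was not tested. Both patterns were noticed in these data and then counted in the same data.

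Among markers of further cell types, all 3 plasma cell markers had a promoter DHS (Sdc1 40.96, Prdm1 141.62 and Xbp1 216.62). Sdc1 and Xbp1 have a CpG-rich promoter, a class in which 85.5% of all genes had a promoter DHS. Prdm1 is in the other class (39.2%). Of the erythroid markers, Klf1 had one (177.81) and Hbb-b1 had none.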
